A study of Mus musculus with 4 samples.

Results

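The miRNAs described here are the arms named as guide arms of the miR-17 cluster, which runs from miR-17 to miR-92a within the host gene Mir17hg, and of the miR-106b-25 cluster, together with miR-32-5p, which carries the same seed as miR-92a-3p and miR-25-3p. They were chosen by name, and 10 of the 603 miRNA names listed in the data are members: 6 from the miR-17 cluster, 3 from miR-106b-25, and miR-32-5p. In these data, miR-18a-5p and miR-106b-5p had fewer reads than the opposite arms of their hairpins. Small RNA was sequenced from exosomes that BV2 cells, an immortalized mouse microglial line of wild-type genotype, had released into the culture medium, and the vesicles were pelleted by ultracentrifugation. Control cells stayed at 37 °C for 2 h. The heatstroke (HS) cells were held at 42 °C for 2 h and, by the study's methods, then rewarmed at 37 °C for 12 h, whereas the study's results text gives a shorter time between heating and exosome harvest. Each group had 2 libraries, by replicate number called C1 and C2 in the control group and HS1 and HS2 in the HS group. No source says that they came from separate cultures. Every p-value thus rests on the spread between these libraries, which may be technical. In limma it also rests on the spread of all tested miRNAs, towards which each variance is drawn. The study used the comparison to learn which exosomal miRNAs differ after heat stress.

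A miRNA is cut from a hairpin in a longer transcript, and either arm of the hairpin can be loaded into an Argonaute protein. The loaded strand pairs with mRNAs mainly through its seed, bases 2 to 8, and lowers their stability and translation. The transcript of the miR-17 cluster is a target of Myc, is known for promoting proliferation and survival, and represses Bcl2l11, whose protein Bim promotes apoptosis. The miR-106b-25 cluster is a paralog that is transcribed with Mcm7, a subunit of the replicative helicase. In monocytes, miR-17-5p and miR-20a-5p are known to decrease during maturation to macrophages, and miR-92a-3p is known as an abundant miRNA of plasma and vesicles.

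The mature sequences show why the members are read as 4 seed groups. They were taken from RefSeq (GRCm38.p6), which held all 19 of the miRNAs named by the selection rules, and the capitals mark the seed.
mmu-miR-17-5p: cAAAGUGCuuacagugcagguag
mmu-miR-20a-5p: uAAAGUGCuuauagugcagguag
mmu-miR-93-5p: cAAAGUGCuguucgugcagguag
mmu-miR-106b-5p: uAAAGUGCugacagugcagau
mmu-miR-18a-5p: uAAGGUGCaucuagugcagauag
mmu-miR-19a-3p: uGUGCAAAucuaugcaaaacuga
mmu-miR-19b-3p: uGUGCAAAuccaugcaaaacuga
mmu-miR-92a-3p: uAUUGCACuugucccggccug
mmu-miR-25-3p: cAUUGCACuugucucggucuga
mmu-miR-32-5p: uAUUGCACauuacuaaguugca
The seed AAAGUGC was shared by 4 members from both clusters, GUGCAAA by the miR-19 pair, and AUUGCAC by miR-92a-3p, miR-25-3p and miR-32-5p. The single member with AAGGUGC was miR-18a-5p. Outside the seed the groups differed in how alike their members are. The miR-19 pair differed at 1 of 23 positions and miR-17-5p and miR-20a-5p at 2 of 23. miR-92a-3p and miR-25-3p differed at 3 of 21 positions, whereas miR-32-5p differed from miR-92a-3p at 10 of 21. The mismatches allowed in mapping are not given in the sources used here, so the split of reads within the miR-19 pair and between miR-17-5p and miR-20a-5p is uncertain.

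The hairpins of the miR-17 cluster lie on the plus strand of mouse chromosome 14 (GRCm38), from Mir17 at chr14:115043671-115043754 to Mir92-1 at chr14:115044427-115044506. All 6 hairpins fall within an exon of Mir17hg, the long noncoding host transcript. The miR-106b-25 hairpins lie on the minus strand within Mcm7, in the order Mir106b at chr5:138165737-138165818, Mir93 at chr5:138165523-138165610 and Mir25 at chr5:138165321-138165404. Mir93 and Mir25 overlap an exon only of a retained-intron transcript of Mcm7, and Mir106b overlaps no annotated exon. Mir32, at chr4:56895229-56895298 on the minus strand, lies in an intron of Tmem245, which encodes a transmembrane protein. miR-19b-3p and miR-92a-3p have a second source each in the miR-106a-363 cluster on chromosome X, Mir19b-2 at chrX:52741983-52742066 and Mir92-2 at chrX:52741838-52741928. The mature sequence is the same from both loci, so the reads of these 2 miRNAs cannot be assigned to either locus.

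The reads on all listed miRNAs totalled 96516 and 121503 in C1 and C2, and 42091 and 113966 in HS1 and HS2. The deposited values, called normalized counts, were these reads over the size factor of their library. A miRNA with 0 reads could hold up to 3, which equals 1.99 to 2.51 normalized counts in 3 of the libraries and 7.25 in HS1. Such limits, and all intervals given for single libraries, cover counting error only, because amplified reads are not independent molecules. HS1 stood apart from the other libraries, with 228 names above 0 against 420 to 444. The 6 stromal and endothelial marker miRNAs summed to 1407 and 3288 normalized counts in the control group, 21.8 in HS1, where miR-199a-3p and miR-145a-5p were at 0, and 927 in HS2. The 5 epithelial markers summed to 181 and 379 in the control group, 2.42 in HS1, where 4 of them were at 0, and 114 in HS2. The 6 myeloid markers, listed for the labelled cell type, summed to 2439 and 5455 in the control group and 1714 and 2872 in HS1 and HS2. Most of their reads were of miR-21a-5p and miR-146a-5p (4666 and 1457 in C1). miR-142a-5p had 205 and 281 reads in C1 and C2 and 33 and 248 in HS1 and HS2. For miR-155-5p these were 176 and 188, and 26 and 186. By contrast, miR-142a-3p had 17 and 3 reads in C1 and C2 and 0 and 3 in HS1 and HS2. miR-223-3p had 5 and 2 reads in C1 and C2 and 3 and 0 in HS1 and HS2. The 5 red cell and serum markers summed to 139 and 229 in the control group and to 346 and 222 in HS1 and HS2, and miR-144-3p was at 0 in all libraries except C1. None of the tested markers in these lists met the study's criterion for altered miRNAs. The log2 fold changes of the tested members below are given with and without HS1, and those of the other named miRNAs with all 4 libraries only. The part of these differences in the results was not tested.

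Among the guide arms named for each cluster, nearly all reads were of a single miRNA, miR-92a-3p or miR-25-3p, which share a seed. Reads of miR-92a-3p may come in part from Mir92-2 on chromosome X. Together, miR-92a-3p and miR-25-3p took 97.5% and 98.4% of all member reads in C1 and C2, and 99.4% and 97.6% in HS1 and HS2. The 10 members held 8.95% and 9.70% of all listed miRNA reads in C1 and C2, against 8.16% and 8.08% in HS1 and HS2. The other 8 members together held between 0.0499% (HS1) and 0.222% (C1). By mean normalized count over the 4 libraries these followed in the order miR-20a-5p, miR-17-5p, miR-93-5p, miR-19b-3p, miR-19a-3p, miR-106b-5p, miR-32-5p and miR-18a-5p, and the ranges of all neighbours in this order overlapped. The plot of member levels shows this gap between the 2 leading miRNAs and the rest in every library.

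**Figure D1:**
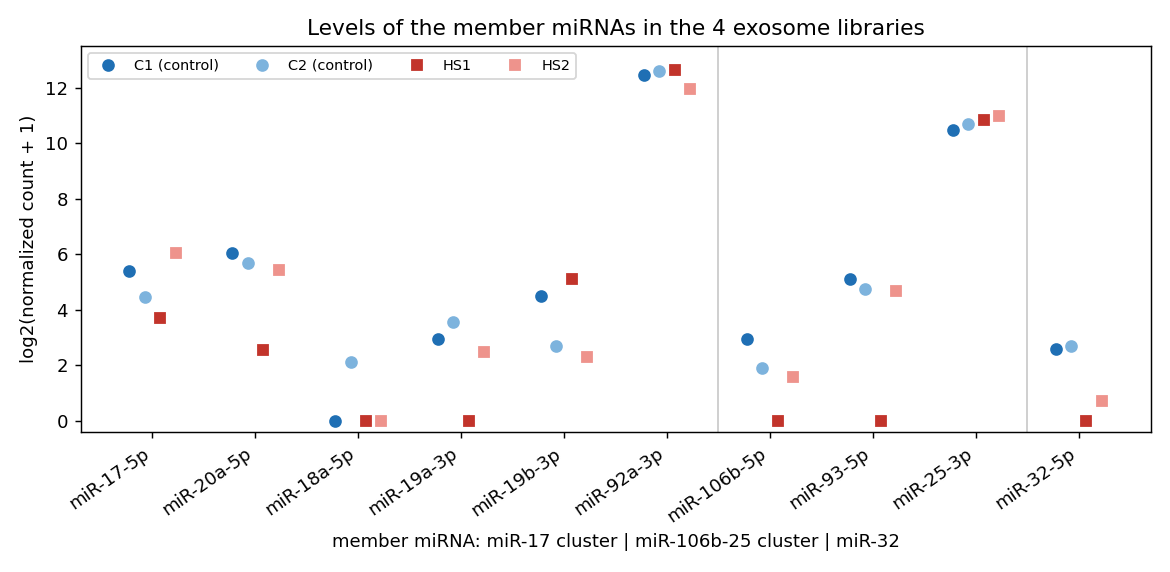
Levels of the 10 member miRNAs, grouped by transcript, in the 2 control (circles) and 2 HS (squares) exosome libraries, as log2(normalized count + 1). miR-92a-3p and miR-25-3p lay far above the other members in all 4 libraries. In HS1, 5 members had 0 reads, and 228 of all 603 listed names were above 0.

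mmu-miR-92a-3p, the last hairpin product of the miR-17 cluster and known as an antiangiogenic miRNA in endothelium, was counted with 5621 and 6233 normalized counts in C1 and C2 and 6413 and 3957 in HS1 and HS2. The groups overlapped, since HS1 was the highest library and HS2 the lowest. miR-92a-3p ranked between 2 and 3 among all names by reads in every library. The mean was 5927 ± 433 (SD, n = 2) in the control group and 5185 ± 1737 in the HS group. The log2 fold change, here and below the difference between the group means of log2(normalized count + 1) and not the log of the ratio of the printed means, was -0.23 (SE 0.75, adjusted p = 0.897, limma). Its log2 fold change was -0.58 without HS1 and 0.12 without HS2. When the libraries were scaled by TMM or by their total listed reads, both HS libraries lay below both control libraries. A p-value that misses the threshold does not show that the levels were the same, and in bulk material fewer vesicles and less of a miRNA per vesicle cannot be told apart.

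mmu-miR-25-3p, the most abundant product of the miR-106b-25 cluster and known to target Bcl2l11, was counted with 1423 and 1634 normalized counts in C1 and C2 and 1843 and 2010.45 in HS1 and HS2. Both HS libraries lay above both control libraries, as did 12.5% of the 376 tested miRNAs, and miR-25-3p was the only member that did so. With TMM scaling or scaling by total listed reads the groups overlapped. The mean was 1528 ± 150 (SD, n = 2) in the control group and 1927 ± 119 in the HS group, and the log2 fold change was 0.34 (SE 0.71, adjusted p = 0.854, limma). It was 0.40 without HS1 and 0.27 without HS2.

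The ratio of miR-92a-3p to miR-25-3p, which both carry the seed AUUGCAC, was taken within each library and so does not depend on scaling. miR-92a-3p exceeded miR-25-3p by 3.95 times (95% interval 3.75 to 4.17) in C1 and 3.81 times (3.65 to 3.99) in C2. The ratio was 3.48 (3.21 to 3.77) in HS1 and 1.97 (1.88 to 2.06) in HS2. Both HS libraries thus had a lower ratio than both control libraries, but the interval of HS1 overlapped those of C1 and C2, and that of HS2 did not. On the log2 scale the ratio averaged 1.96 ± 0.04 (SD, n = 2) in the control group and 1.39 ± 0.58 in the HS group, a difference of -0.57 that is no larger than the spread within the HS group. It was -0.98 without HS1 and -0.16 without HS2, so HS2 decided its size. The bar plot of shares shows both sides of this ratio. In HS2 the share of listed reads was 5.23% for miR-92a-3p and 2.66% for miR-25-3p. The other 3 libraries ranged from 6.30% to 7.57% and from 1.76% to 1.98%, respectively.

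**Figure D2:**
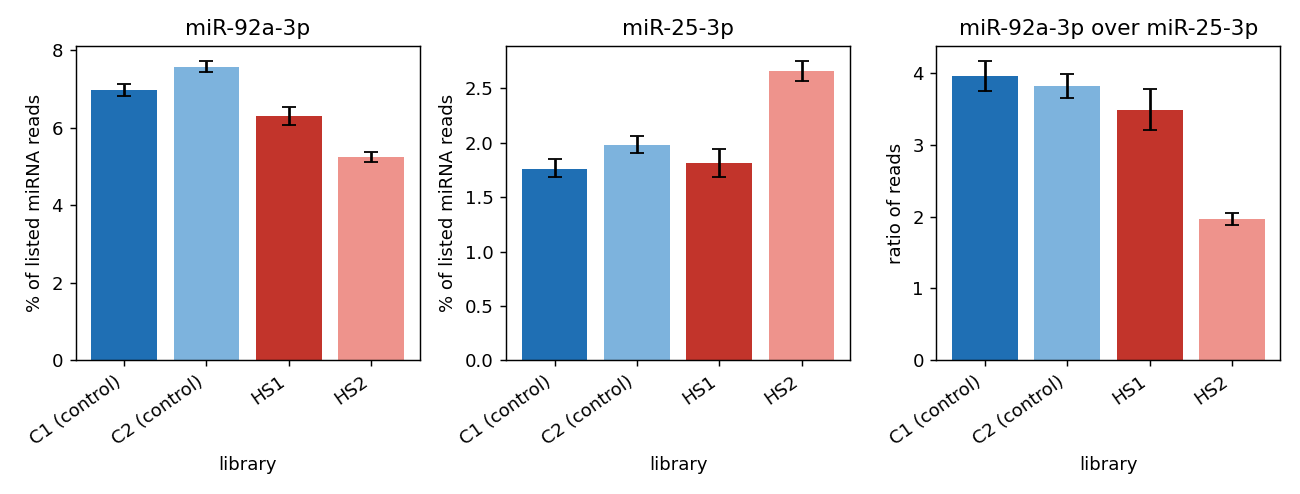
Share of all listed miRNA reads taken by miR-92a-3p (left) and miR-25-3p (middle) and the ratio of their reads (right) in each library, with 95% intervals from counting error only. The ratio was 3.48 to 3.95 in 3 libraries and 1.97 in HS2.

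The summed guide arms named for each cluster followed these leading miRNAs. The named guide arms of the miR-17 cluster summed to 5754 and 6324 normalized counts in C1 and C2 and 6464 and 4073 in HS1 and HS2, a difference of -0.23 between the group means of the log2 values. The difference was -0.57 without HS1 and 0.10 without HS2. miR-92a-3p made up 97.1% to 99.2% of these reads. The named miR-106b-25 guide arms summed to 1463 and 1663 in C1 and C2 and 1843 and 2037 in HS1 and HS2, a difference of 0.31 on the same scale. miR-25-3p made up 97.3% to 100% of them. Without their leading miRNAs the named guide arms of each cluster had few reads, a count that leaves out the opposite arms described further on. For the miR-17 cluster these were 160 and 134 reads in C1 and C2 and 21 and 176 in HS1 and HS2. For miR-106b-25 they were 48 and 42 in C1 and C2, 0 in HS1 and 40 in HS2.

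The 4 members with the seed AAAGUGC, which is known from the repression of cell cycle inhibitors such as Cdkn1a, summed to a low level in HS1 and to a level between those of C1 and C2 in HS2. The sum was 145 and 99.6 normalized counts in C1 and C2, 16.9 in HS1 and 135 in HS2. mmu-miR-17-5p, the member that gives its name to the cluster, was counted with 41.0 and 21.0 normalized counts in C1 and C2 and 12.1 and 65.7 in HS1 and HS2. The HS libraries held both the lowest and the highest value. The log2 fold change was -0.04 (SE 1.12, adjusted p = 0.998, limma), with -1.22 without HS2 and 1.13 without HS1, and its sign turned with the upper quartile scaling.

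mmu-miR-20a-5p was counted with 64.4 and 50.2 normalized counts in C1 and C2, 4.84 in HS1 and 42.5 in HS2. Both HS libraries lay below both control libraries under all 4 scalings, with HS2 close to C2. With the deposited scaling, this held for 32.4% of the tested miRNAs. The mean was 57.3 ± 10.05 in the control group and 23.7 ± 26.6 in the HS group (SD, n = 2 each), 2.42-fold lower. The log2 fold change was -1.86 (SE 1.22, adjusted p = 0.621, limma), -1.02 by edgeR, -1.22 by DESeq2, and -0.41 without HS1 in limma. At the mean normalized count of the other 3 libraries, HS1 would hold 21.6 reads of miR-20a-5p, and 2 were counted.

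The order of miR-17-5p and miR-20a-5p, which come from the same transcript, differed between libraries. miR-17-5p took 38.9% (exact 95% interval 30.3 to 48.0) of the reads of the pair in C1 and 29.5% (21.0 to 39.2) in C2. In HS2 it took 60.7% (52.8 to 68.3), so miR-20a-5p was the more abundant of the pair in both control libraries and miR-17-5p in HS2. HS1 held only 7 reads of the pair, of which 71.4% (29.0 to 96.3) were miR-17-5p, an interval that includes both orders. With a single HS library that can be read, the difference between the groups has no replicate check.

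mmu-miR-93-5p, the miR-106b-25 member that differs from miR-17-5p at 4 of 23 positions, had 33.4 and 25.8 normalized counts in C1 and C2, 0 in HS1 and 24.6 in HS2. HS2 lay just below C2, and with any of the other 3 scalings the groups overlapped. The log2 fold change was -2.59 (SE 1.75, adjusted p = 0.621, limma), and -0.25 without HS1. Its size depended on the method, with -0.94 by edgeR, -1.20 by DESeq2, and -3.08 and -2.11 in limma with pseudocounts of 0.5 and 2, and the group means differed 2.41-fold. At the mean of the other libraries, 11.5 reads would be counted in HS1, above the limit of 3 that 0 reads allow. mmu-miR-106b-5p was counted with 8 and 4 reads in C1 and C2 and 0 and 3 in HS1 and HS2. Both HS libraries were at or under the limit of 3 reads. With both taken at 3 reads, the control mean was 1.02-fold higher, and 2.36-fold without HS1. This ratio fell under 1 without C1 (0.587) or without HS2 (0.648). It leaves out counting error on the 8 and 4 control reads, so no minimum fold is shown. The fitted log2 fold change of miR-106b-5p, which depends on the pseudocount, was -1.63 (SE 0.96, adjusted p = 0.621, limma), and -0.84 without HS1.

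The remaining members of the miR-17 cluster were miR-18a-5p and the miR-19 pair. mmu-miR-18a-5p, the member with the seed AAGGUGC, had 5 reads in C2 and 0 in the other 3 libraries, and it was not tested. mmu-miR-19a-3p was counted with 6.69 and 10.8 normalized counts in C1 and C2 and 0 and 4.64 in HS1 and HS2. The miR-19 pair showed different patterns. As counted, miR-19a-3p was lower in both HS libraries than in both control libraries, as were 32.4% of the 376 tested miRNAs. Its 0 reads in HS1 allow up to 7.25 normalized counts, above C1, so the order of HS1 and C1 is not resolved. The log2 fold change of miR-19a-3p was -2.01 (SE 1.13, adjusted p = 0.617, limma) and -0.76 without HS1.

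mmu-miR-19b-3p had 21.7 and 5.42 normalized counts in C1 and C2, 33.9 in HS1 and 3.98 in HS2. The groups overlapped, and miR-19b-3p was the only low-abundance member with its highest value in HS1, where 14 reads were counted and 4.29 would be at the mean of the other libraries. Its log2 fold change was 0.12 (SE 1.34, adjusted p = 0.979, limma), and -1.28 without HS1. miR-19b-3p made up 76.5% and 33.3% of the reads of the miR-19 pair in C1 and C2, 100% of 14 reads in HS1 and 46.2% of 13 reads in HS2. The share in HS2 thus lay between those of the control libraries.

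mmu-miR-32-5p, the member outside both clusters, was the only member that met the study's criterion for altered miRNAs, more than a 2-fold change with an unadjusted p under 0.05. It was counted with 6 and 8 reads in C1 and C2, 0 in HS1 and 1 in HS2, or 5.02, 5.42, 0 and 0.66 normalized counts. Both HS libraries lay below both control libraries under all 4 scalings, as did 32.4% of the tested miRNAs with the deposited one. The log2 fold change was -2.27 (SE 0.75, unadjusted p = 0.0358, adjusted p = 0.533, limma), and -1.90 without HS1. Both HS libraries were at or under the limit of 3 reads, and with both taken at 3 reads the control mean was 1.13-fold higher. This ratio was 2.62 without HS1, and without HS2 it was 0.719 and gave no fold. It leaves out counting error on the control reads. The 95% intervals of the share of listed reads in C1 (0.00285% to 0.0136%) and C2 (0.00334% to 0.0130%) overlapped that in HS1 (0% to 0.00913%), so no minimum fold is shown. The call was lost under the other 3 scalings (unadjusted p from 0.0506 to 0.0530, limma) and without C1 (0.0783) or C2 (0.0836). On the recovered reads the unadjusted p was 0.281 by the quasi-likelihood test of edgeR and 0.285 by DESeq2, with log2 fold changes of -3.12 and -3.23.

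Across the tested miRNAs, 6.65% met this criterion with a lower level in the HS group and 8.24% in either direction, and among the 9 tested members it was 1 in each case. With 0 reads taken as 0, both HS libraries lay below both control libraries for 32.4% of the 376 tested miRNAs and for 5 of the 9 members. These members were miR-19a-3p, miR-20a-5p, miR-106b-5p, miR-93-5p (with the deposited scaling only) and miR-32-5p. Of these, miR-19a-3p, miR-106b-5p and miR-32-5p reached the minimum of 10 summed reads only through the control libraries (24, 12 and 14 of their 31, 15 and 15 reads) and would not have been tested on the HS libraries alone, so these counts are a description of the members. No miRNA passed an adjusted p of 0.05 in limma, edgeR or DESeq2, and 31 had an unadjusted p under 0.05 in limma. The median log2 fold change was -1.63 over the 9 tested members, which is the value of miR-106b-5p, and -0.65 over all 376. For the same reason as the counts, the medians are only a description. The medians were -0.58 and -0.17 without HS1, and -2.42 and -1.38 without HS2. Without HS2, 4 members met the criterion in limma (miR-19a-3p, miR-20a-5p, miR-93-5p and miR-32-5p), as did 24.2% of the tested miRNAs with a lower level in the HS group. With 2 libraries against 2, an exact two-sided permutation test cannot give a p below 0.333 for any single miRNA.

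**Figure D3:**
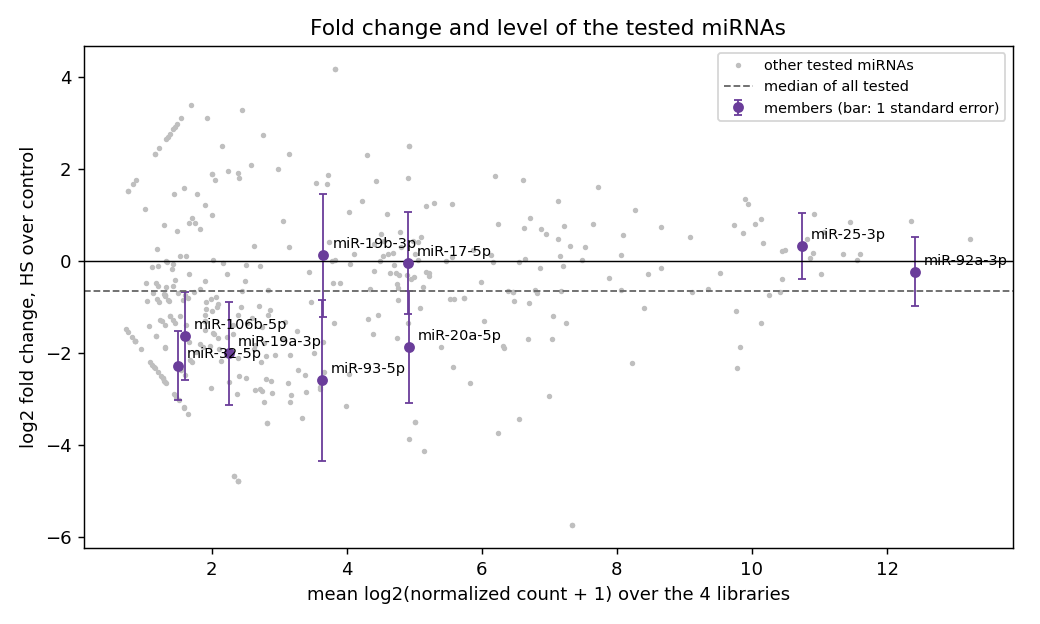
Log2 fold change (HS over control) against the mean log2(normalized count + 1) over the 4 libraries for the 376 tested miRNAs (grey) and the 9 tested members (purple, bars of 1 standard error), with the median of all tested miRNAs dashed. miR-92a-3p and miR-25-3p lay near 0 at high levels, whereas 5 of the 7 low-abundance members lay below the median of -0.65. Among these, miR-19a-3p, miR-106b-5p and miR-32-5p passed the read minimum only through the control libraries.

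The base composition of the miRNAs also moved with the level in HS1. Among 131 miRNAs with at least 100 summed reads and a RefSeq sequence, the median log2 difference between HS1 and the other 3 libraries was -1.05 for those under 45% G and C, -0.37 from 45% to 55% and 1.07 at 55% and above. miR-20a-5p (39.1% G and C) fell in the lowest class, miR-17-5p, miR-93-5p and miR-25-3p in the middle class, and miR-92a-3p (57.1%) in the highest. The remaining members, all under 45% G and C, had fewer than 100 summed reads and were in no class. Of these, miR-19b-3p (39.1%) stood in HS1 at 3.26 times the mean of the other libraries, with 14 reads. The others, miR-18a-5p, miR-19a-3p, miR-106b-5p and miR-32-5p, had 0 reads in HS1. For HS2 against the control libraries the medians were -0.58, -0.10 and 0.13 in the same order. The part of base composition in the members' values was not tested.

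The opposite arms of the member hairpins add a readout that the choice of members did not use, and 6 of the 12 were listed. For 2 hairpins the arm named as a member was the minor product. mir-18a gave 166 reads of its 3p arm and 5 of its 5p arm over the 4 libraries, and mir-106b gave 701 reads of its 3p arm and 15 of its 5p arm. The 3p arms of these hairpins, which carry seeds of their own, are shown here because they outnumber the named members.
mmu-miR-18a-3p: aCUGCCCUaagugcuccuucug
mmu-miR-106b-3p: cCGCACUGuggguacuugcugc
mir-18a held 0% to 7.81% of its reads on the 5p arm. Its highest value was in C2 (exact 95% interval 2.59 to 17.3), and the 0 of 47 reads in C1 had an upper bound of 7.55%. The 5p share of mir-106b was 6.35% and 1.90% in C1 and C2, 0% of 52 reads in HS1 and 0.917% in HS2, so C1 was the highest library. The interval of C1 (2.78 to 12.1) did not overlap that of HS2 (0.190 to 2.66), whereas that of C2 (0.519 to 4.78) did. By contrast, mir-93 gave mostly its 5p arm, with 93.0% and 71.7% in C1 and C2 and 86.0% in HS2, and no read of either arm in HS1. mir-25 was almost all 3p arm in each library, with 0.131% to 2.85% on the 5p arm.

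**Figure D4:**
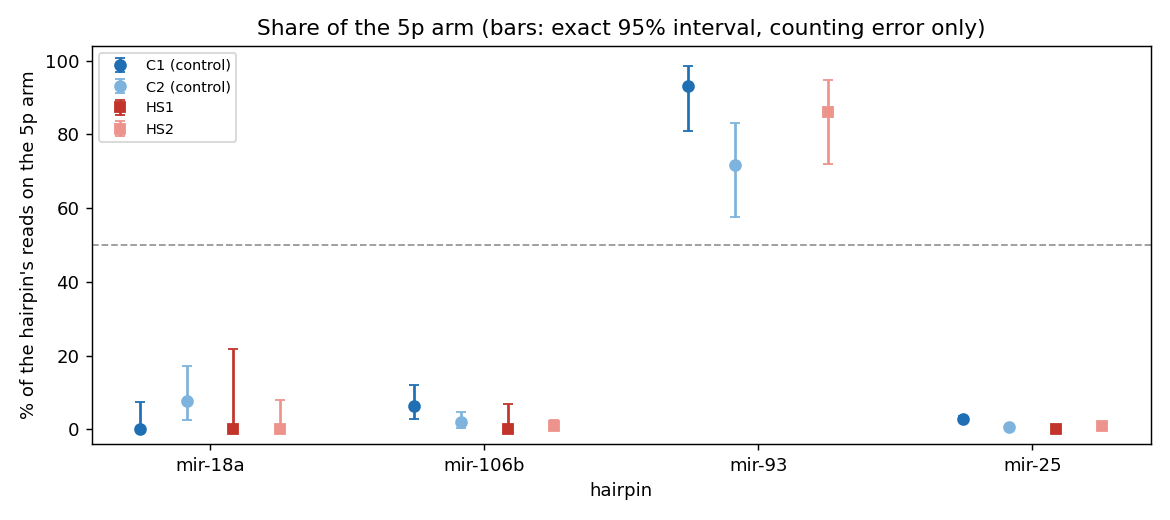
Percentage of reads on the 5p arm of the mir-18a, mir-106b, mir-93 and mir-25 hairpins in each library, with exact 95% intervals from counting error, and a dashed line at equal arms. mir-93 lay above the line in the 3 libraries with reads, and the other 3 hairpins lay below it in all 4.

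mmu-miR-106b-3p had 98.6 and 140.3 normalized counts in C1 and C2 and 125.7 and 214.98 in HS1 and HS2. The groups overlapped, and the log2 fold change was 0.48 (SE 0.78, adjusted p = 0.809, limma). Its ratio to miR-25-3p from the same cluster was 0.0693 and 0.0859 in C1 and C2 and 0.0682 and 0.107 in HS1 and HS2, so the ratios of the groups also overlapped. mmu-miR-18a-3p varied less, with 39.3 and 40.0 normalized counts in C1 and C2 and 36.3 and 29.9 in HS1 and HS2. Both HS values lay below both control values except with the upper quartile scaling, as for 32.4% of the tested miRNAs with the deposited scaling. The log2 fold change was -0.26 (SE 0.72, adjusted p = 0.889, limma).

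The pattern of miR-18a-3p over the libraries was close to that of miR-92a-3p, which is encoded in the same transcript and also on chromosome X. Among 156 other names with at least 100 summed reads, it was the second most like miR-92a-3p over the 4 libraries, by a root mean square difference of 0.157 on the log2 scale after centring. The nearest was miR-451a, a red cell miRNA (0.147), and the third was miR-7a-5p (0.194). The other members with at least 100 summed reads ranked much lower, and the rest were not ranked. miR-25-3p was 26 in this order (0.407), miR-17-5p was 110 (1.15), miR-20a-5p was 127 (1.52) and miR-93-5p was 139 (2.24). These ranks describe 4 libraries and carry no test.

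The other opposite arms had few reads. mmu-miR-25-5p had 50 and 16 reads in C1 and C2 and 1 and 33 in HS1 and HS2, with a log2 fold change of -1.35 (adjusted p = 0.680, limma). mmu-miR-93-3p had 3 and 15 reads in C1 and C2 and 0 and 6 in HS1 and HS2, with a log2 fold change of -1.49 (adjusted p = 0.621, limma). Only the control libraries brought miR-93-3p to the minimum of 10 summed reads. miR-92a-1-5p and miR-32-3p had 1 read each, both in HS2.

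The miR-106a-363 cluster, the paralog on chromosome X, also encodes the members miR-19b-3p and miR-92a-3p. Of 8 further names of this cluster, 2 were listed. mmu-miR-363-3p, which carries the AUUGCAC seed, had 17 and 10 reads in C1 and C2 and 0 and 8 in HS1 and HS2. Its log2 fold change was -2.11 (SE 1.20, adjusted p = 0.617, limma), and both HS libraries lay below both control libraries under all 4 scalings. With the deposited scaling, 32.4% of the tested miRNAs did so. The 0 reads of miR-363-3p in HS1 allow up to 7.25 normalized counts, above the 6.78 of C2, so the order of HS1 and C2 is not resolved. Only through the control libraries (27 of its 35 reads) did miR-363-3p reach the minimum of 10 summed reads. mmu-miR-20b-5p, with the AAAGUGC seed, had 4 and 2 reads in C1 and C2 and 0 and 2 in HS1 and HS2 and was not tested. The reads of miR-92a-3p cannot be placed on either chromosome from these values.

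mmu-miR-92b-3p, a product of a separate locus on chromosome 3 (chr3:89227116-89227198, minus strand), shares the AUUGCAC seed and was the remaining listed name with a member's seed. It was counted with 15.05 and 31.2 normalized counts in C1 and C2 and 2.42 and 8.63 in HS1 and HS2. Both HS libraries lay below both control libraries under all 4 scalings, as did 32.4% of the tested miRNAs with the deposited one. The log2 fold change was -1.99 (SE 0.94, unadjusted p = 0.0966, adjusted p = 0.617, limma). With the AUUGCAC seed, miR-92a-3p and miR-25-3p outnumbered miR-32-5p, miR-363-3p and miR-92b-3p in every library. The 3 members of this seed group summed to 7048 and 7873 normalized counts in C1 and C2 and 8255 and 5968 in HS1 and HS2, with overlapping groups.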

How the data were processed

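Small RNA of exosomes was measured in 4 libraries, 2 control and 2 HS. The authors removed adapters, reads under 17 nt and low-quality reads, mapped the rest with bowtie and counted miRNAs. The version, genome build, miRNA annotation and mismatch setting are not given in the sources used here. The deposited signal values, headed RPKM, were whole reads divided by 1 size factor per library: 100% of values above 0 were whole multiples of the smallest value of their file (tolerance 0.001), and the size factors (1.20, 1.48, 0.414 and 1.51) differed from those of DESeq2 by at most 4.9e-10 in relative terms. Whole reads were recovered by division.

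The groups were tested on log2(normalized count + 1) by limma 3.58.1 (functions lmFit and eBayes, no mean-variance trend) under R 4.3.3. On this scale the fold change of a low miRNA can come out smaller or larger than in a count model. Against edgeR it was smaller for miR-32-5p (-2.27 and -3.12) and larger for miR-93-5p (-2.59 and -0.94). The test covered miRNAs whose reads over all libraries summed to 10 or more. P-values were two-sided and were adjusted over all 376 tested miRNAs by the Benjamini-Hochberg method. Without a trend, each variance is drawn towards a value shared by all tested miRNAs, whatever their level. With the trend, the unadjusted p of limma was 0.533 for miR-92a-3p and 0.362 for miR-25-3p, against 0.771 and 0.661. A miRNA was called altered by the study's criterion, over 2-fold with an unadjusted p under 0.05. Counts at or under 3 reads in both libraries of a group were taken as 3 reads per library, and such folds leave out counting error in the other group. Shares of listed reads carry 95% Wilson intervals, arm and pair shares exact ones, and ratios, which needed over 3 reads of both miRNAs, intervals from counting error. Alternatives were edgeR 4.0.16, DESeq2 1.42.0, a mean-variance trend, other scalings, pseudocounts and filters, a replicate block, and leaving out each library.

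The miRNAs named are the members, detected opposite arms, detected miR-106a-363 names, listed names sharing a member's seed and the 3 names most like miR-92a-3p. The members and lists were chosen with earlier results of these data known. Sequences came from RefSeq and coordinates from GENCODE M21, both GRCm38. Tables were made with Python 3.11.15.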

Additional observations from a re-analysis of the deposited data

How the results depend on the processing

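The count of altered miRNAs over all names was 31. It was 12 with edgeR's filterByExpr, 19 with the replicate block, and 26 to 113 when 1 library was left out, the highest without HS2. The count of altered members was 1. It was 0 with edgeR's quasi-likelihood test, DESeq2, limma with a trend, TMM, upper quartile or total-read scaling, a pseudocount of 2, filterByExpr, and the replicate block. Leaving out 1 library gave 0 to 4 altered members, with 0 without C1 or C2 and 4 without HS2. The call of miR-32-5p held with a pseudocount of 0.5, no filter, and without either HS library. Its unadjusted p was 0.0506 to 0.0530 under the other scalings, 0.0608 with a pseudocount of 2 and 0.0911 with the replicate block, and filterByExpr removed it before the test.

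The log2 fold change of miR-17-5p turned positive with edgeR (0.54), DESeq2 (0.36) and upper quartile scaling (0.15), and ranged from -1.22 to 1.13 with 1 library left out. The corresponding ranges were -1.28 to 1.53 for miR-19b-3p and -0.58 to 0.12 for miR-92a-3p. The log2 difference of the summed named miR-106b-25 guide arms was 0.51 with upper quartile scaling. The causes were not tested. The median over all tested miRNAs was -0.68 with TMM, -0.47 with upper quartile and -0.72 with total-read scaling. Replicate numbers were not treated as pairing the libraries, since deviations of same-numbered libraries had a correlation of -0.0973. Over the alternatives for the members' fold changes, 111 values kept their direction and their side of the threshold, 8 reversed, 10 (all of miR-32-5p) fell short of it and 3 passed it without HS2. Where an arm was left with 1 library, that library is assumed to vary like the other group. In HS1, 228 of all 603 listed names were above 0. Of the 8 low-abundance members, 5 had 0 reads there, and for 3 of them (miR-18a-5p, miR-106b-5p and miR-32-5p) the reads that the mean of the other libraries gives for HS1 were under the limit of 3.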
